A study of Mus musculus with 3 samples.

Results

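The genes described here are the mouse ATP-binding cassette (ABC) transporters of subfamilies A to G, measured in RNA from distal colon. They were taken as every gene symbol that starts with Abc, then a letter from a to g and a digit, which gave 50 of the 24346 gene symbols in the data and 65 of the 34535 isoforms. Each member was placed in 1 of 6 roles: 16 lipid members (all of subfamily A), 12 drug efflux members, 4 mitochondrial, 3 peroxisomal, 4 translation-linked and 4 sterol members. The other 7 members lie outside the 6 roles. The symbol rule does not take Cftr, Tap1 and Tap2, which belong to the same superfamily under older names.

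ABC transporters bind and hydrolyse ATP in paired nucleotide-binding domains and use it to move a substrate across a membrane. In the intestine, efflux pumps of the epithelium return drugs and xenobiotics to the lumen or pass their conjugates to the blood, sterol transporters send plant sterols and cholesterol back to the lumen, and organelle transporters serve mitochondria, peroxisomes and lysosomes. Subfamilies E and F have the nucleotide-binding domains without membrane spans and act on ribosomes and translation.

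The study has 3 RNA-seq files of distal colon, each labelled as a library from wild-type mice 8 weeks old. The labels give the strain as JAX, a supplier's name, and the state as steady-state, with no other allele or agent. The 3 files form 1 group, so there is no contrast between conditions, and every result is a level. Levels are fragments scaled to transcript length and to mapped fragments (FPKM), which can be compared between genes. The labels do not say whether the files came from separate mice or are parts of 1 library. The file names carry the same index and lane with a running number. The values of the 3 files differed by no more than sampling noise in most genes, with 7 of 8771 called different. That test covered only genes with 1 isoform and so left out Hba-a1, an erythroid gene at 34.0, 9.35 and 2.93 FPKM. Whether the files are parts of 1 library was not tested. As the cautious choice the files were counted as 1 sample, and an SD here is over files, not over animals.

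The files rest on an estimated 3.78e+06, 3.79e+06 and 1.24e+06 mapped fragments, of which the members held 4895, 4746 and 1649. All 8 markers of colon absorptive epithelium, all 4 of goblet cells, all 4 of smooth muscle, all 4 of enteric neurons and all 5 of macrophages were at 1 FPKM or more in every file, as were the 4 markers of distal intestinal position, so RNA of several cell types was measured together. In such bulk RNA, fewer cells of a type and less RNA per cell cannot be told apart. Of 8 small intestine enterocyte markers, 3 reached 1 FPKM in every file and Gata4 was listed at 0. The 4 erythroid markers had unequal sums in the 3 files, 34.6, 10.4 and 4.41 FPKM, most of it Hba-a1, and all 4 sperm markers were listed at 0.

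In distal colon the ABC genes ranged from a listed 0 to a mean of 64.9 FPKM, and their counts are given beside the share of all symbols. Of the 50 members, 28 were at 1 FPKM or more in every file, against 48.5% of all symbols. A mean of 10 FPKM or more was reached by 8 members, against 23.3% of all symbols, and 5 members were listed at 0 in every file, against 29.9% of all symbols. The median level of the members was 2.01 ± 0.302 FPKM (SD over the 3 files), and that of all symbols 1.23 FPKM. Among genes above 0 the order of the medians was the other way, with 2.44 FPKM for 45 members and 4.75 FPKM for all symbols. The members together held 314 ± 8.30 FPKM, which was 0.0734% of the summed FPKM. The 5 highest, Abcb1a, Abcd3, Abcg2, Abce1 and Abcf1, held 52.7 ± 1.52% of the members' sum.

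**Figure D1:**
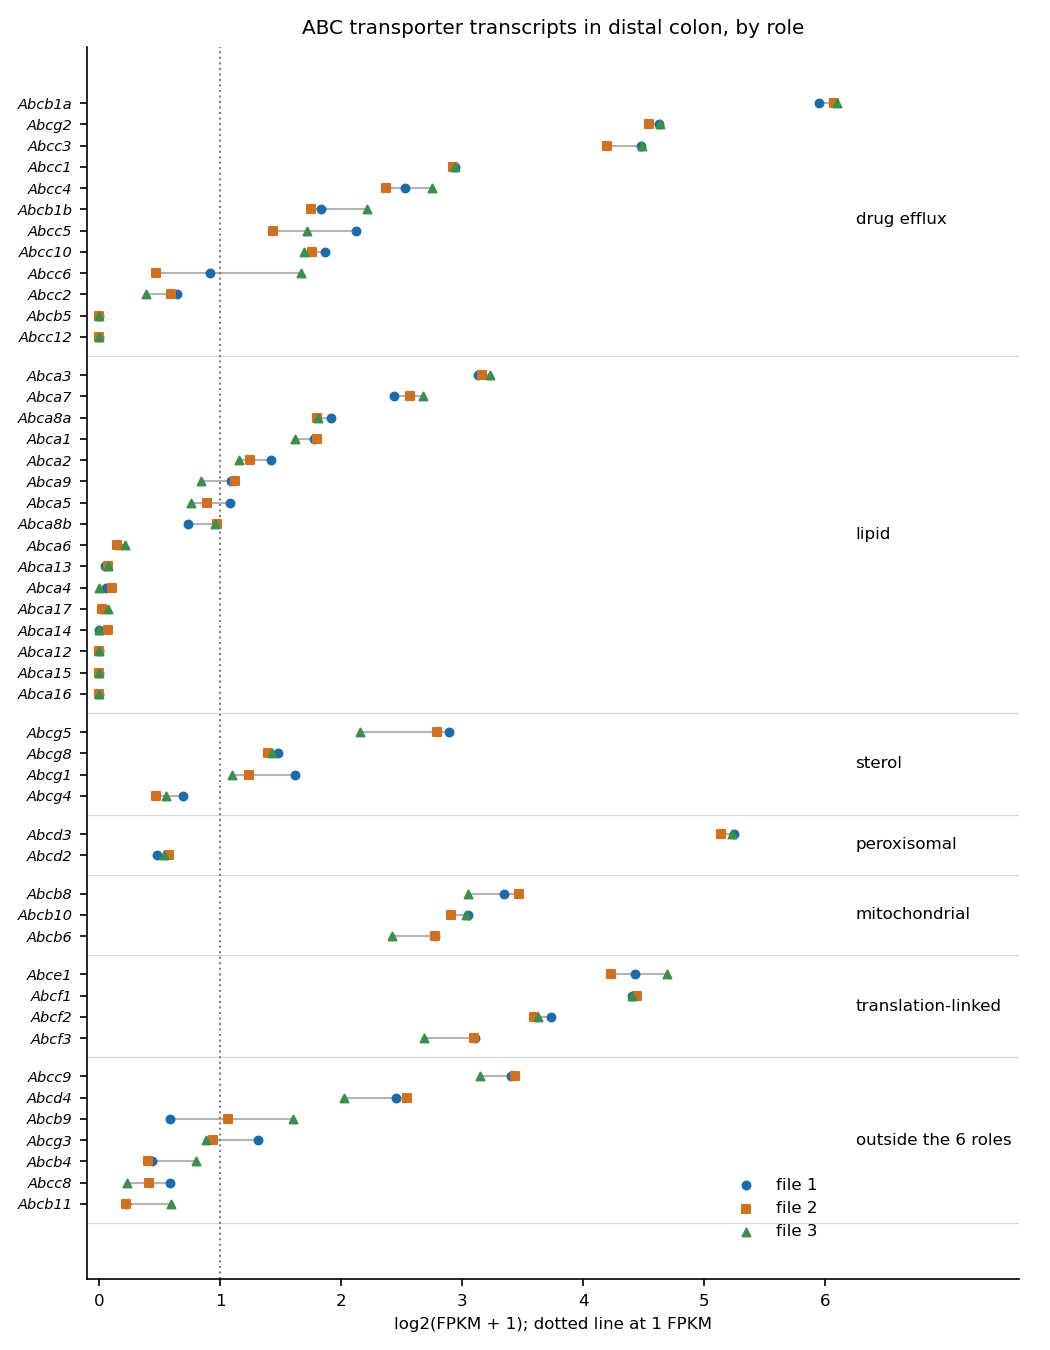
Level of 48 of the 50 members as log2(FPKM + 1) on the x axis, with 1 point per file, a grey line over the range of the files and members grouped by role on the y axis. Abcb1a lies at the far right above 60 FPKM, the mitochondrial and translation-linked members shown lie right of the dotted line at 1 FPKM, and most lipid members lie left of it.

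Roles differed in level. The translation-linked members had the highest median, 15.5 ± 0.952 FPKM over the 3 files, and that of the mitochondrial members was 7.91 ± 0.604 FPKM. The drug efflux members had a median of 2.78 ± 0.349 FPKM but held 41.1% of the members' summed FPKM, because 3 of them stood far above the rest. The sterol median was 1.61 ± 0.276 FPKM and that of the members outside the 6 roles 0.754 ± 0.223 FPKM. The lipid members, the most numerous role, had the lowest median at 0.428 ± 0.0469 FPKM, with 5 of 16 at 1 FPKM or more in every file.

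Drug efflux members were led by Abcb1a, an intestinal P-glycoprotein that pumps a wide range of hydrophobic drugs out of the cell. Abcb1a was at 60.7, 66.2 and 67.6 FPKM in the 3 files, a mean of 64.9 ± 3.64 FPKM. It was the highest of all members, at rank 993 of 24346 symbols, and it lay 1.65-fold or more above Abcd3, the next member, in every file. Its paralog Abcb1b, the other mouse P-glycoprotein, had a mean of 2.86 ± 0.685 FPKM. The ratio of Abcb1a to Abcb1b was 23.7, 28.0 and 18.6 in the 3 files, so the P-glycoprotein transcript of this tissue was mostly Abcb1a.

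The last exon of each of these paralogs holds a near-identical coding stretch, shown here because fragments inside it can hardly be assigned to either gene. On GRCm38 the stretches lie at chr5:8747355-8747531 (Abcb1a) and chr5:8865750-8865926 (Abcb1b), plus strand, in exon 28 of 28 of each GENCODE transcript. Capitals mark the 2 mismatches in 177 bases.
Abcb1a: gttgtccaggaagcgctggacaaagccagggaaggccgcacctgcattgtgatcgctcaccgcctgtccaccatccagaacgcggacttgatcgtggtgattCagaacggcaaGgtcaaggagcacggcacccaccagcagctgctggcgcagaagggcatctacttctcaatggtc
Abcb1b: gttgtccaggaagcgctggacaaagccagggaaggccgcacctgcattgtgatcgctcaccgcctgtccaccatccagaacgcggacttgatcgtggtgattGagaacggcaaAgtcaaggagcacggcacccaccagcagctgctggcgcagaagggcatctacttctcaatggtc
The stretch was the longest match of this pair at 97% identity or more, and 3.54% of the Abcb1a transcript. Abcb4 shared 183 bases with Abcb1a at 97.8% identity. The sources used here do not give how fragments that match several genes were counted, so the low levels of Abcb1b and Abcb4 may hold some fragments of Abcb1a, and this was not tested.

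Abcg2, the breast cancer resistance protein, an apical pump of drugs, urate and porphyrins, was at 23.6, 22.4 and 23.8 FPKM, a mean of 23.3 ± 0.792 FPKM. Abcc3, a basolateral pump of bile acid and glucuronide conjugates, was at 21.3, 17.3 and 21.4 FPKM, a mean of 20.004 ± 2.33 FPKM. The file ranges of Abcg2 and Abcc3 did not overlap, and both lay above all other drug efflux members except Abcb1a. Abcc2, the apical pump for similar conjugates, had a mean of only 0.457 ± 0.131 FPKM, and the ratio of Abcc3 to Abcc2 ranged from 34.2 to 69.7 over the files.

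The other drug efflux members were lower. Abcc1, a pump of glutathione conjugates, had a mean of 6.66 ± 0.0561 FPKM, and Abcc4, which exports cyclic nucleotides and prostaglandins, had 4.88 ± 0.790 FPKM. Abcc5, also an exporter of cyclic nucleotides, was at 2.44 ± 0.836 FPKM and Abcc10 at 2.42 ± 0.212 FPKM. Abcc6, whose loss causes ectopic mineralisation, was at 0.883, 0.386 and 2.18 FPKM, so its files lay on either side of 1 FPKM. Abcb5 and Abcc12 were listed at 0, where 3 fragments over the 3 files would be 0.0924 FPKM for Abcb5 and 0.0789 FPKM for Abcc12.

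Abcc4 has 2 start sites in the data, and its 300-base RefSeq promoter windows (GRCm38.p6, 250 bases before to 50 after the start) are shown because nearly all of its transcript was assigned to the CpG-rich start. The start at base 118706219 of chromosome 14 held 4.75, 4.15 and 5.72 FPKM, and the start at 118676931 held a mean of 0.00254 FPKM. The first window, chr14:118706170-118706469, has 41 CpG dinucleotides and the second, chr14:118676882-118677181, has 6, both on the minus strand. The window of Abcc2, chr19:43782058-43782357 on the plus strand, has 1. Capitals mark CpG.
Abcc4 used start: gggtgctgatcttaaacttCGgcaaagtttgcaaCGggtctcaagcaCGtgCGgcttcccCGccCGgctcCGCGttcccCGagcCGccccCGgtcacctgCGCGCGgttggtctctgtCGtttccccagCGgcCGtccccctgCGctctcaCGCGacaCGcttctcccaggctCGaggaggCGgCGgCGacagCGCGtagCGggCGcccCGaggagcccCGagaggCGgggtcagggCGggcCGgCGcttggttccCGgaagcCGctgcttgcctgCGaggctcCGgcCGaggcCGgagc
Abcc4 other start: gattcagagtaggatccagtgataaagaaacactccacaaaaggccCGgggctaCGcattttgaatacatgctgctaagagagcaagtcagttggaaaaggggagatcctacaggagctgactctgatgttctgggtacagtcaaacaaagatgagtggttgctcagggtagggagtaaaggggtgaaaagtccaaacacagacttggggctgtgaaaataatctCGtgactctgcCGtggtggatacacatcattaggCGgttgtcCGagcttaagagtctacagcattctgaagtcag
Abcc2: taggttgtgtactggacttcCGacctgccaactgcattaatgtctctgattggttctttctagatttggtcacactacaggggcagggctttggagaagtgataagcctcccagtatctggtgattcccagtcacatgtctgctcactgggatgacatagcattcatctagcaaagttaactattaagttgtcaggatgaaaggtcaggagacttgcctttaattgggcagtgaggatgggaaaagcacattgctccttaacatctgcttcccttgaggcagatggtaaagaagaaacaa
Abcc10 also has 2 starts: 2.03 ± 0.245 FPKM at the one with 17 CpG and 0.388 ± 0.456 FPKM at the one with 1 CpG. The Abcc10 start with 1 CpG was at 0.891, 0.273 and 9.38e-05 FPKM in the 3 files. The one with 17 CpG was higher in every file, but the share of the other was not resolved. For Abcg8 the levels went the other way, with 1.25 ± 0.372 FPKM at a start with 6 CpG and 0.446 ± 0.393 FPKM at a start with 21 CpG. The start with 21 CpG was at 0.743, 0.596 and 0.000140 FPKM in the 3 files, and Abcg8 rests on an estimated 50 fragments in all. The split between its starts was therefore not resolved.

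Transporters and regulators that work beside the efflux pumps were mostly expressed, with 15 of 17 at 1 FPKM or more in every file. The highest were Gstp1, a glutathione transferase that makes conjugates, at 164 ± 6.75 FPKM, and Hnf4a, an intestinal transcription factor, at 126 ± 0.838 FPKM. Sult1b1, a sulfotransferase, was at 81.7 ± 2.00 FPKM and Vdr, the vitamin D receptor, at 76.9 ± 2.27 FPKM. The 2 genes not at 1 FPKM in every file were Nr1i3, a xenobiotic receptor, at 0.423, 1.69 and 1.40 FPKM, and Slc10a2, the ileal bile acid uptake carrier, at 1.26, 0.541 and 0 FPKM. Slc10a2 is also among the 8 small intestine markers, whose sum was 152, 134 and 140 FPKM in the files, most of it Fabp6 (95.6 FPKM) and Fabp2 (41.7 FPKM).

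Sterol members centred on Abcg5 and Abcg8, which form the heterodimer that sends sterols back into the gut lumen. Abcg5 was at 6.42, 5.92 and 3.45 FPKM and Abcg8 at 1.79, 1.63 and 1.68 FPKM. The Abcg8 sum includes a non-coding isoform, listed at 3.36e-05, 1.36e-06 and 1.68 FPKM, which was nearly the whole sum in file 3. Abcg5 lay above Abcg8 in every file, by 2.05-fold to 3.64-fold, although the proteins pair with each other. Abcg5 was lowest in the shallowest file, where it rests on an estimated 9 fragments and Abcg8 on 6. Abcg1, which loads cholesterol onto lipoproteins, was at 2.06, 1.36 and 1.14 FPKM, overlapping Abcg8 in range. Abcg4, a sterol transporter known mainly from brain, was at 0.486 ± 0.116 FPKM.

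Abcg5 and Abcg8 face away from each other, with RefSeq starts 110 bases apart. Their promoter windows share 209 bases, and the window of Abcg8, chr17:84682871-84683170 on the plus strand, is shown because it carries both starts. Capitals mark its single match to the TATA box letters TATAAA, which reads TTTATA on this strand. The match ends 26 bases before the Abcg8 start and lies 79 bases before the Abcg5 start, in the reading direction of Abcg5.
Abcg8: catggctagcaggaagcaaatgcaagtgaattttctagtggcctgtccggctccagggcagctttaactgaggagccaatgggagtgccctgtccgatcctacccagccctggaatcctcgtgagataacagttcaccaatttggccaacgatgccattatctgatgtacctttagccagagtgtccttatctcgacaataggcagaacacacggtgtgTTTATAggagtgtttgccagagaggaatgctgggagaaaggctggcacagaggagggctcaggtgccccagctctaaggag
TATAAA, sought on both strands, was in 5 of the 37 member windows at starts in the data, those of Abca1, Abca4, Abcg2, Abcg5 and Abcg8, and in 12.6% of all 18652 such windows. The matches of Abcg5 and Abcg8 are the same bases. A match is a description of letters and not evidence of a site in use.

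Lipid members were led by Abca3, which packs surfactant lipids in lung lamellar bodies, at 7.74, 7.94 and 8.36 FPKM. Abca7, a phospholipid transporter of phagocytes and other cells, was at 4.40, 4.93 and 5.38 FPKM. Abca8a was at 2.76, 2.47 and 2.51 FPKM. The file ranges of these 3 members did not overlap each other. Abca1, which gives cholesterol to apolipoprotein A-I, had a mean of 2.32 ± 0.221 FPKM and Abca2, a lysosomal lipid transporter, 1.42 ± 0.231 FPKM. Abca9 (1.03 FPKM) and Abca5 (0.884 FPKM) lay near the threshold, with files on either side of 1 FPKM.

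The remaining lipid members were below 1 FPKM in every file. Abca8b had a mean of 0.854 FPKM and Abca6 0.122 FPKM. Abca13 (0.0447 FPKM), Abca4 (0.0373 FPKM), Abca17 (0.0294 FPKM) and Abca14 (0.0169 FPKM) rest on at most 6 estimated fragments each, so their order cannot be told. Abca4 is the retinoid transporter of photoreceptors and Abca12 the ceramide transporter of skin. Abca12, Abca15 and Abca16 had no fragment in any file; 3 fragments over the files would be 0.0419, 0.0662 and 0.0770 FPKM.

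The lipid and sterol partner genes reached 1 FPKM in every file in 12 of 15 cases, and Lcat, which esterifies cholesterol in plasma, was at 0.882, 1.55 and 2.01 FPKM. Apoe, an apolipoprotein of macrophages and other cells, was at 188 ± 2.56 FPKM and Apoa1, the acceptor of Abca1, at 40.3 ± 5.32 FPKM. Srebf2, a transcription factor of sterol synthesis, was at 33.7 ± 0.746 FPKM. Npc1l1, the sterol uptake protein of the small intestine, was at 0.341 ± 0.182 FPKM and Soat2, which esterifies cholesterol inside enterocytes and hepatocytes, at 0.496 ± 0.154 FPKM, both under 1 FPKM in every file. Abcg5, which acts opposite to Npc1l1, was thus present at several FPKM while Npc1l1 was not, and the file ranges of the pair did not overlap.

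Peroxisomal members were dominated by Abcd3. Abcd3, which imports branched-chain fatty acids and bile acid precursors, was at 36.9, 34.1 and 36.5 FPKM, a mean of 35.8 ± 1.48 FPKM. Abcd2, another peroxisomal importer of fatty acids, was at 0.394, 0.491 and 0.449 FPKM. The file ranges of Abcd3 and Abcd2 were far apart. The promoter window of Abcd3, chr3:121815253-121815552 on the minus strand, is shown as the richest in CpG of all members, with 45 in capitals.
Abcd3: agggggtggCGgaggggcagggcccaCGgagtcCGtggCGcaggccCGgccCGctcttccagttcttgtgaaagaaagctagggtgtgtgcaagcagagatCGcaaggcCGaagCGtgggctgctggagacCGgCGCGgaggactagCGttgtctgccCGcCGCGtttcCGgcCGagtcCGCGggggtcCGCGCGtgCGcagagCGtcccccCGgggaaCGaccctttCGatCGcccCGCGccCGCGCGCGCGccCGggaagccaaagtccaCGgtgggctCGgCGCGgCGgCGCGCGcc
All 11 peroxisome partner genes were at 1 FPKM or more in every file. Among them, the fatty acid activator Acsl5 was at 37.5 ± 1.39 FPKM. The thiolase Acaa1a was at 25.0 ± 4.93 FPKM and the multifunctional enzyme Hsd17b4 at 17.6 ± 1.46 FPKM.

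All 4 mitochondrial members were at 1 FPKM or more in every file. Abcb8, a transporter of the inner mitochondrial membrane, was at 9.14, 10.1 and 7.24 FPKM, and Abcb10, needed for heme synthesis, at 7.28, 6.51 and 7.18 FPKM. Abcb8 and Abcb10 overlapped in range. Abcb6, linked to porphyrin transport, had a mean of 5.33 ± 0.848 FPKM. A stretch of 38.6% of the Abcb6 transcript is also part of an overlapping annotated gene, Gm29253, on the same strand, so its level is uncertain. All 10 iron-sulfur and heme partners were at 1 FPKM or more in every file, the highest being the scaffold Iscu at 54.2 ± 6.55 FPKM and the glutaredoxin Glrx5 at 32.6 ± 3.98 FPKM. Alas1, the first enzyme of heme synthesis, was at 23.8 ± 1.72 FPKM and Fech, the last, at 20.7 ± 1.02 FPKM.

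Translation-linked members ranged from 6.85 to 21.05 FPKM. Abce1, which splits ribosomes after termination, was at 20.5, 17.7 and 24.9 FPKM, and Abcf1, which binds the initiation factor eIF2, at 20.2, 20.8 and 20.2 FPKM. Abce1 and Abcf1 overlapped in range and their order is not separated. Abcf2 was at 12.3, 11.1 and 11.4 FPKM and Abcf3 at a mean of 6.85 ± 1.25 FPKM, each apart in range from the member above it. All 8 translation partner genes with values were at 1 FPKM or more in every file. Eif6, which keeps ribosomal subunits apart, was at 59.8 ± 1.21 FPKM, and the release factor Etf1 at 32.9 ± 2.52 FPKM. The ribosome rescue factor Hbs1l was at 19.1 ± 1.25 FPKM and Eif2s1, a subunit of eIF2, at 15.3 ± 4.29 FPKM.

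Among the members outside the 6 roles, Abcc9 was the highest. Abcc9, the sulfonylurea receptor of muscle and pericyte potassium channels, was at 9.58, 9.82 and 7.85 FPKM. Its channel partner Kcnj8 was at 6.96 ± 0.574 FPKM, so the ratio of Abcc9 to Kcnj8 was 1.04 to 1.496 over the files. The endocrine counterparts Abcc8 (0.332 ± 0.165 FPKM) and Kcnj11 (0.246 ± 0.266 FPKM) were under 1 FPKM in every file. The 4 smooth muscle markers summed to 1407, 1394 and 1318 FPKM and the 5 pericyte markers, 4 of which reached 1 FPKM in every file, to 50.2, 48.5 and 45.4 FPKM. Kcnj8 is itself 1 of the 5. The part of these cells in the level of Abcc9 was not tested.

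Abcd4, which moves cobalamin out of lysosomes, was at 4.48, 4.81 and 3.06 FPKM. Its 4 partner genes were all at 1 FPKM or more in every file, with Tcn2, which carries cobalamin in blood, at 36.4 ± 1.90 FPKM and Lmbrd1, the lysosomal partner, at 14.9 ± 0.782 FPKM. Mmachc, which processes cobalamin in the cytosol, was at 6.51 ± 0.324 FPKM and the receptor Cd320 at 5.28 ± 0.725 FPKM. Abcb9, a lysosomal peptide transporter, was at 0.5005, 1.08 and 2.03 FPKM, and Abcg3, a rodent relative of Abcg2, at a mean of 1.08 ± 0.345 FPKM. The hepatic bile transporters were low: Abcb4, the phosphatidylcholine flippase of bile, was at 0.470 ± 0.232 FPKM and Abcb11, the bile salt export pump, at 0.282 ± 0.198 FPKM. Of 8 hepatocyte markers, 7 were at 1 FPKM or more in every file, with sums of 300, 290 and 278 FPKM and Alb, albumin, the highest at 129 ± 5.35 FPKM. Whether hepatocyte transcripts contribute to Abcb4 and Abcb11 was not tested. Cftr, Tap1 and Tap2, the superfamily members with other symbols, were at 14.8 ± 0.385, 14.01 ± 0.717 and 17.3 ± 1.49 FPKM.

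Several members that are chromosomal neighbours differed widely in level. On chromosome 5 Abcb1a, Abcb1b and Abcb4 lie in a row, with gaps of 49576 and 27406 bases, and had 64.9, 2.86 and 0.470 FPKM. On chromosome 17 Abca17, at 0.0294 FPKM, is 4770 bases from Abca3, at 8.01 FPKM. The 5 subfamily A genes in a row on chromosome 11, Abca8b, Abca8a, Abca9, Abca6 and Abca5, ranged from 0.122 FPKM in Abca6 to 2.58 FPKM in Abca8a, and the row of Abca14, Abca15 and Abca16 on chromosome 7 was at or near 0.

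**Figure D2:**
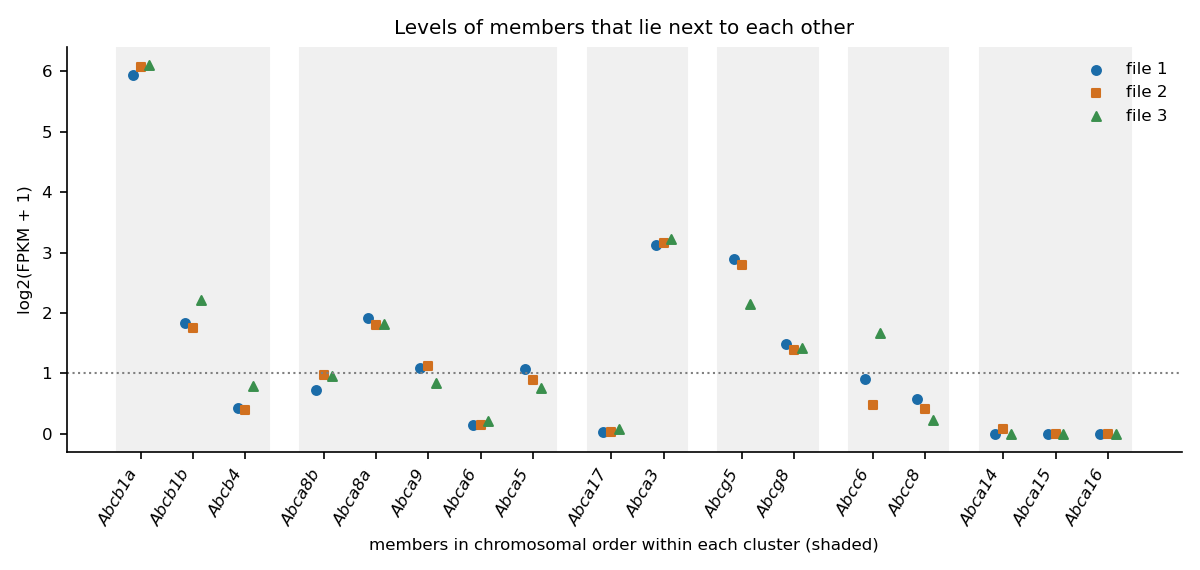
Levels as log2(FPKM + 1) on the y axis, with 1 point per file, of members in 6 chromosomal clusters, in order along the chromosome on the x axis. The first cluster drops from above 60 FPKM in Abcb1a to below 1 FPKM in Abcb4, and the last holds no member above 0.1 FPKM.

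RefSeq promoter windows were matched to 38 members, 34 of them within 100 bases of a start in the data, taking the window with most CpG where there were several. Across these 34 genes the CpG count and the mean FPKM had a Spearman rho of 0.525, and across 16457 symbols 0.575, as a description of genes that are not independent replicates. The 21 members with a mean of 1 FPKM or more had a median of 21 CpG and the 13 lower ones 9. Over all symbols the medians were 21 CpG for the 9160 at 1 FPKM or more and 4 for the 7297 lower ones. Abcg2 and Abcg5, with 10 and 5 CpG, were high with few, while Abca5, with 40, was under 1 FPKM on average. The GC box letters GGGCGG, sought on both strands, were in 17 of the 37 member windows at starts in the data, and in 47.1% of all such windows. The windows of Abcb1a, Abca7, Abca17 and Abcb6 lie at other starts than the data use and were left out.

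**Figure D3:**
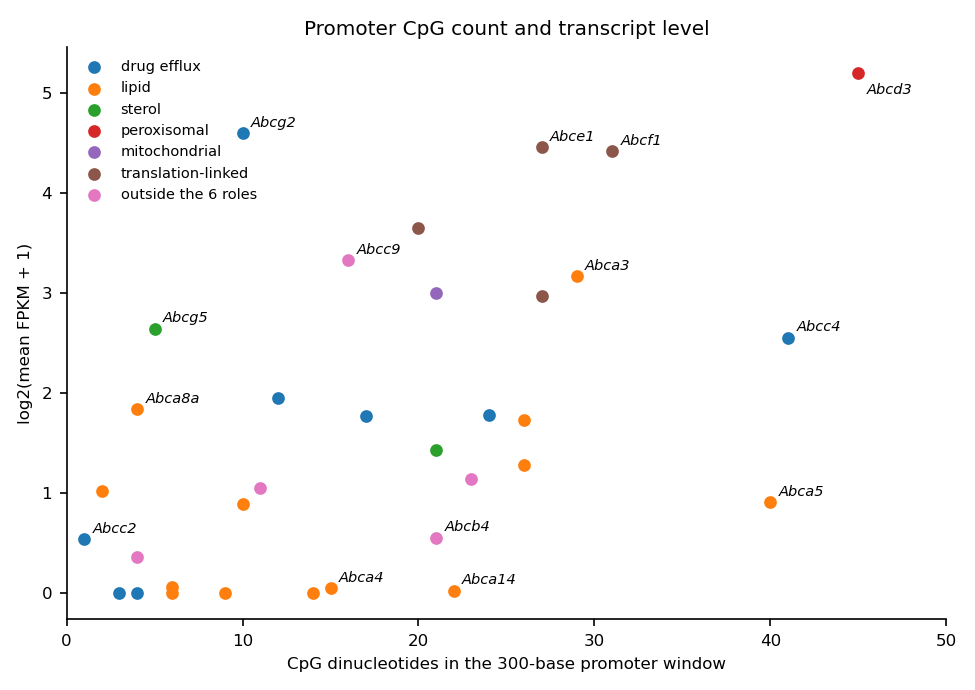
Number of CpG dinucleotides in the 300-base promoter window (x axis) against log2(mean FPKM + 1) (y axis) for 34 members, coloured by role. Abcd3, Abce1 and Abcf1 lie toward the upper right, and Abcg2 stands high at 10 CpG. The translation-linked members Abcf2, at 20 CpG, and Abcf3, at 27 CpG, lie lower.

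Of the 50 members, 9 had more than 1 isoform. None had 2 or more isoforms at 20% or more of the gene's FPKM in every file. In 3 members, Abca3, Abcf2 and Abcg8, the isoform listed highest changed between files while the gene's sum stayed steady. The Abca3 isoforms of 6479 and 6406 bases were at 3.78 and 3.96 FPKM in file 1, 3.77 and 4.17 FPKM in file 2, and 8.28 and 0.0864 FPKM in file 3. The Abcf2 isoforms, which differ by 3 bases, were at 2.13 and 10.2 FPKM in file 1, 0.00430 and 11.1 FPKM in file 2 and 8.43 and 2.92 FPKM in file 3. Without file 3 the count was 2, Abca3 and Abcg8, so for these members the split between isoforms was not resolved and the sum is the value to read.

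**Figure D4:**
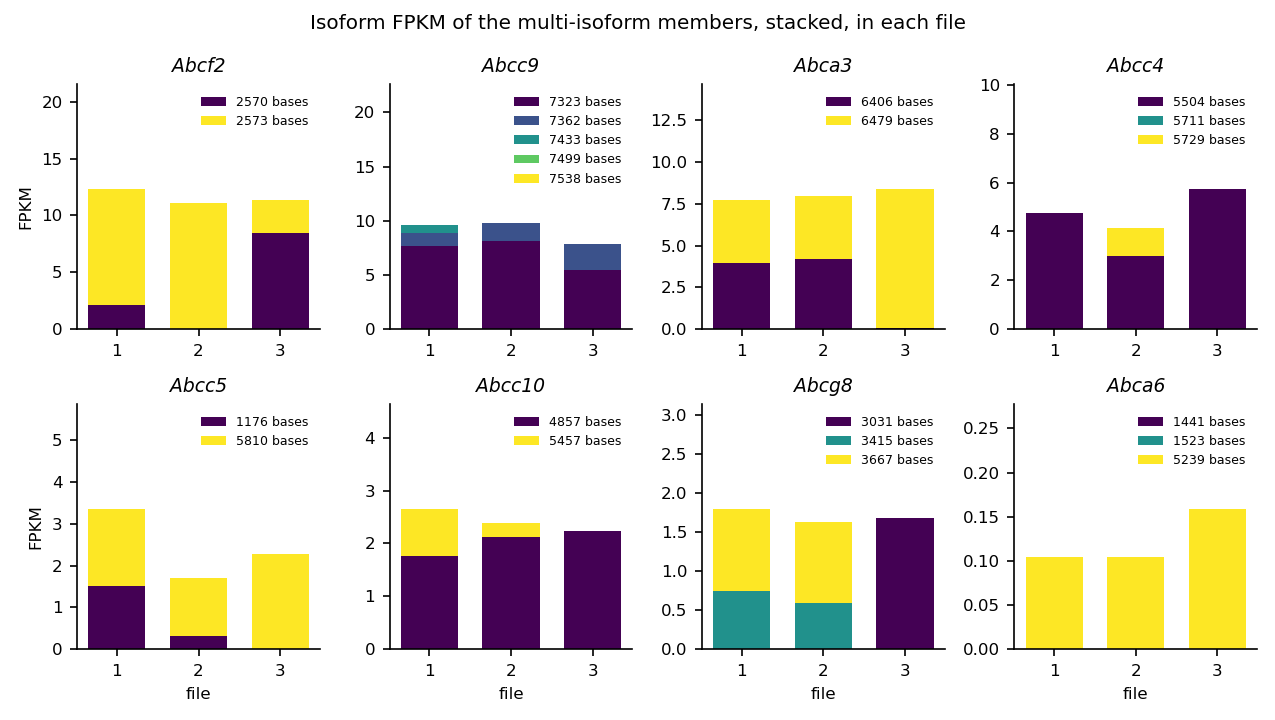
FPKM of each isoform, stacked, in each of the 3 files (x axis) for the 8 multi-isoform members above 0, with isoforms coloured by length. The total of Abca3 stays near 8 FPKM and that of Abcf2 near 11 to 12 FPKM while the colours change places in file 3.

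No member passed the test of a difference between the files. A chi-square test against the sampling variance of each value, with Benjamini-Hochberg adjustment over all 8771 genes with 1 isoform and a mean of 1 FPKM or more, called 0 of 25 members and 7 genes in all, or 0.0798%. At an unadjusted p under 0.05, 4 of the 25 members and 438 of all 8771 genes passed. The 4 were Abcc6 (adjusted p = 0.133 by this chi-square test), Abce1, Abcc3 and Abcb9, all of which were highest in the shallowest file. For Abcc3 that file hardly differed from file 1, at 21.4 and 21.3 FPKM, and file 2 was lower at 17.3 FPKM. The median ratio of observed to sampling variance was 0.898 in the members and 0.678 in all genes tested. Under sampling noise alone the median of this ratio lies below 1, so a value under 1 does not mean less spread than noise. The members were above all genes in this ratio and in the share at an unadjusted p under 0.05 by the chi-square test, 16% against 4.99%. Of the 44 neighbouring pairs in the order of mean levels, 35 overlapped in file range and 9 did not, so only the steps at those 9 pairs are separated by the files. Among members with 100 or more estimated fragments over the files the SD was a median of 9.97% of the mean, and among those with fewer it was 30.3%.

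**Figure D5:**
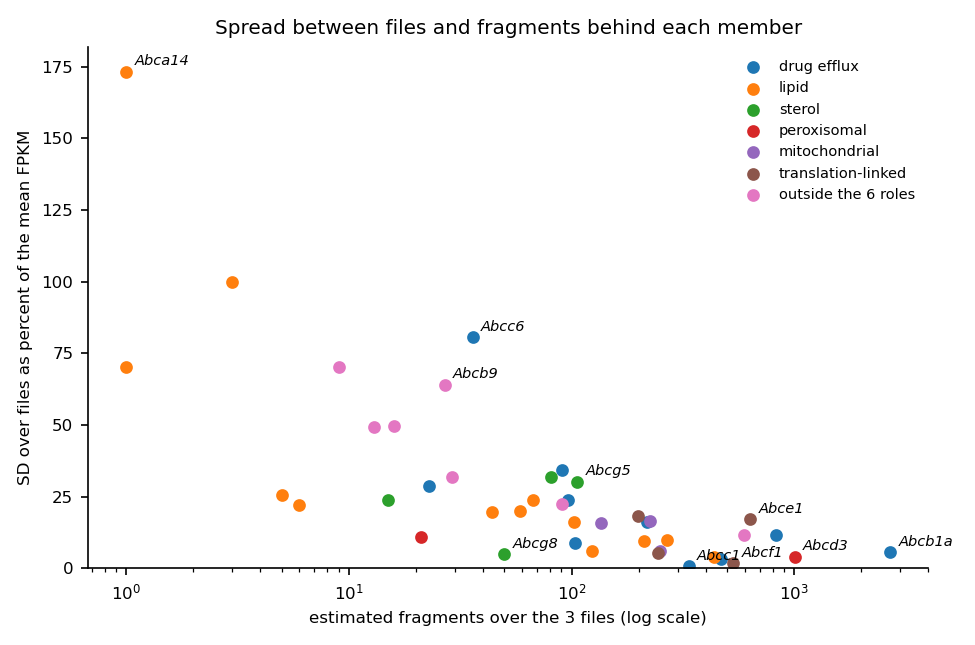
SD over the 3 files as a percent of the mean FPKM (y axis) against the estimated fragments over all files (x axis, log scale) for 43 of the 45 members above 0, coloured by role. Members with 100 or more fragments lie at or below 30.3%, and Abca14, with 1 fragment, is at the top.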

How the data were processed

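Each deposited file is a Cufflinks isoform table for 1 labelled library. FPKM values with lower and upper 95% bounds were deposited by the authors, per the file headers. The mean coverage of each isoform, a signal that the authors also deposited, served to compare depth. The submitters' processing notes list Bowtie2 2.3.4.3, TopHat2 2.1.1 and Cufflinks 2.2.1. Strandedness and the treatment of reads with several matches were not given in the sources used here. Those notes name GRCm39. However, 97.5% of 23107 symbols, and all 50 members, had a start or an end within 1000 bases of its GRCm38.p6 position, so GRCm38 is used.

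Isoform FPKM were added up for each symbol and left unscaled. Depth came from the bounds: the upper bound less the FPKM, divided by 2, was taken as a standard error, and its square divided by FPKM as the worth of 1 fragment. This gave whole numbers within 0.01 for 64.1% to 64.3% of low values, so no counts were recovered. A gene listed at 0 has a limit of 3 fragments over all files, for counting error only. The chi-square test between files scaled them to a common median ratio and used a threshold of 0.05. The file names carry the same index and lane with a running number, and p-values measure only the spread between files.

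Copies were sought with BLAST 2.17.0 (megablast, 100 bases at 97% identity) in GENCODE M21 transcripts. A match was found for 11 of 50 members, 6 of them on the same strand (Abcb1a, Abcb1b, Abcb4, Abcb6, Abcd2 and Abcd4) and 5 on the opposite strand only (Abca3, Abcb9, Abcb10, Abcb11 and Abcc9). By rule, every member was named, with values per file for the 3 highest of each role and all at 10 FPKM or more. Of each partner list the 4 highest and every gene under 1 FPKM in every file were named; Nr1i3, Slc10a2, Lcat, Fabp2, Fabp6 and Alb were named after their values were seen. Values of a few further genes under this rule are left out here, while the counts and sums include them. Members, roles and lists were chosen with earlier results of these data known. Gcn1 had no values. Analyses used Python 3.11.15, pandas 2.3.3 and SciPy 1.17.1.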

Additional observations from a re-analysis of the deposited data

How the results depend on the processing

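The median level of the members, 2.01 FPKM, was 2.44 FPKM over members above 0 alone and 4.70 on the TPM scale, which raises every gene by the same factor within a file. As a back-transformed mean of logs it was 2.66 FPKM with a pseudocount of 1 and 1.69 FPKM with 0.1. A mean over files weighted by depth, added after the data were seen, gave 2.05 FPKM. Lowering the isoform share from 20% to 10% raised the count of members with 2 isoforms from 0 to 1 (Abcc9). Leaving out each file in turn gave 28 to 29 members at 1 FPKM or more, a median of 1.90 to 2.18 FPKM, 52.1% to 53.6% of the sum in the 5 highest, 0 to 2 members with 2 isoforms at 20% and 0 members that differ between files. The count at 1 FPKM was 33 at a threshold of 0.5 FPKM, 24 at 2 FPKM and 33 in TPM. No member was called between files under any alternative, and the smallest adjusted p of a member was 0.0539, for Abcc6 without file 1. With genes of several isoforms included, 40 of 12629 genes were called, against 7 of 8771. Taking the highest isoform left 4 of the 7 medians of roles unchanged and moved the other 3 by less than their SD. No paired analysis was possible because the files form 1 group. With 1.24e+06 fragments, file 3 limits levels under about 1 FPKM.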
